A study of Mus musculus with 6 samples.

Results

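Nuclear receptors are transcription factors, most of which are switched by a small lipid-soluble ligand such as a steroid, thyroid hormone, oxysterol, bile acid or fatty acid, and coregulators are the proteins they recruit to raise or lower transcription. The genes described here are 30 nuclear receptors and 6 coregulators, taken by symbol from a table of 46959 gene rows. All 36 symbols were found, and 25 of them, 21 receptors and 4 coregulators, reached 1 RPKM in at least 2 of the 6 libraries and were tested. The other 11 are described by their reads. RPKM is a read count divided by exon length and library depth, so levels can be compared between genes, while comparisons between libraries still depend on what else each library holds.

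The study sorted 3 cell populations from dissociated islets of adult mice and sequenced their RNA. All animals were triple transgenic. They carried mIns1-H2b-mCherry, a reporter in which an insulin promoter places red fluorescence in the nuclei of insulin-expressing cells, together with Sst-cre, which drives Cre recombinase from the somatostatin gene, and a floxed YFP allele that Cre switches on for good in delta cells and their descendants. Transdifferentiated cells carried both labels, and are therefore insulin-expressing cells with a delta cell history. Beta cells carried mCherry without the lineage label, and delta cells carried the lineage label without mCherry. Each population gave 1 library from a pool of males and 1 from a pool of females, of 10 to 12 animals each. Per the design text, the libraries of 1 sex came from the same islets. The main fit did not use this pairing, and a fit with the pools as a block did. The design text names alpha cells once as the source of the converted cells and elsewhere speaks of females only, whereas the title, the Cre driver and the labels name delta cells and both sexes, and the labels are followed here. Islets were kept overnight at 5.5 mM glucose with 10% serum before dissociation, and serum carries steroid and thyroid hormones. Where 2 values are given for a population, the first is the male pool and the second is the female pool.

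The libraries held 12.5 and 10.9 M reads for transdifferentiated cells, 21.6 and 20.5 M reads for beta cells, and 17.0 and 15.7 M reads for delta cells, as recovered from the steps of the RPKM values. A single read on 1 kb of exon amounted to 0.0464 RPKM in the male beta library and to 0.0917 RPKM in the female transdifferentiated library. The sorted populations carried the markers of their names, which the sort itself partly fixed. The summed RPKM of 7 beta markers was 86442 and 94413 in transdifferentiated cells, 310207 and 221900.0 in beta cells and 1441 and 1767 in delta cells. The summed RPKM of 5 delta markers was 13507 and 13590.3 in transdifferentiated cells, 79.7 and 96.6 in beta cells and 51785 and 60684 in delta cells. Both sums in the transdifferentiated pools lay between those of the other populations. Ins1 and Ins2 made up most of the first sum and Sst most of the second. The sort used reporters of these genes, so the sums are no independent check. Of the beta markers, Slc2a2 overlapped between transdifferentiated cells (35.4 and 61.5 RPKM) and beta cells (47.3 and 93.2 RPKM), and the others did not. RNA of other pancreatic cell types varied: the summed RPKM of 10 acinar markers was 1969 and 68.3 in transdifferentiated cells, 7433 and 284 in beta cells and 532 and 294 in delta cells, which sets the male pools of the first 2 populations apart. The summed RPKM of 5 alpha cell markers, led by glucagon, was 1795 and 2588 in transdifferentiated cells, 457 and 638 in beta cells and 15138 and 16506 in delta cells.

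In islets this gene family has known anchors. Mutations of human HNF4A cause an inherited form of diabetes, glucocorticoids and thyroid hormone act on beta cell function and maturation, ERR gamma is required in mice for the metabolic maturation of beta cells, and NR5A2 is known in the mouse pancreas as a regulator of acinar cells. Most receptors outside the steroid group recognise the hexamer AGGTCA, alone or paired, while the p160 coactivators, encoded by Ncoa1 to Ncoa3, and the corepressor encoded by Ncor1 serve many receptors at once.

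Of the 25 tested genes, 19 passed the test between transdifferentiated and beta cells and 8 between transdifferentiated and delta cells. Against beta cells, 15 were higher and 4 were lower in transdifferentiated cells (limma on log2(RPKM + 1), adjusted p under 0.05 over 13022 genes). Of all tested genes 42.5% were called higher and 8.46% lower in the same comparison, so higher calls were the more common ones in the whole table too. Against delta cells, 4 were higher and 4 were lower, with 5.53% of all genes called higher and 7.2% lower. Between the beta and delta populations, 5 were higher and 14 were lower in beta cells than in delta cells, with 11.7% and 46.3% of all genes called in those directions. The median log2 fold change of the 25 genes was 0.67 for transdifferentiated against beta cells, -0.04 for transdifferentiated against delta cells and -0.93 for beta against delta cells, beside 0.32, -0.03 and -0.36 over all tested genes. The 3 comparisons share libraries, and each rests on 2 pools a group, so a p-value measures only the spread between these pools. In bulk samples, fewer cells of a type and less RNA per cell cannot be told apart. Without the male transdifferentiated library, 1 of those with more acinar RNA, 11 members were higher and 1 lower against beta cells, beside 28.6% and 3.15% of all tested genes, and 3 were higher and 0 lower against delta cells, beside 2.79% and 3.04%, so calls were fewer in the whole table too. Without the male beta library, 13 were higher and 5 lower in transdifferentiated against beta cells, beside 35.6% and 8.66%.

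The median of all genes was away from 0 in both comparisons that use the beta libraries. Insulin transcripts were most abundant there: Ins2 alone had 68229.5 and 73020.0 RPKM in transdifferentiated cells, 243303 and 169339 RPKM in beta cells and 1125 and 1369 RPKM in delta cells, and the part of this in the offset was not tested. Median-of-ratios scaling, which sets the median gene equal across libraries, gave size factors of 1.11 and 1.09 for transdifferentiated cells, 0.788 and 0.875 for beta cells and 1.13 and 1.10 for delta cells. After that scaling the median of all tested genes was -0.00 for transdifferentiated against beta cells and -0.02 for beta against delta cells. The members' counts became 11 higher and 6 lower in transdifferentiated against beta cells, with 27.8% of all genes higher and 26.1% lower. Against delta cells they stayed at 4 higher and 4 lower, with 5.94% and 6.43% of all genes. In beta against delta cells they became 6 higher and 12 lower, with 27.8% and 29.7% of all genes. With the pools as a replicate block added to the scaling, the counts were 13 higher and 6 lower against beta cells, with 29% and 28.1% of all genes, and 6 higher and 13 lower in beta against delta cells, with 29.5% and 30.9%. The members' medians were then 0.30, -0.01 and -0.53 for the 3 comparisons in the order above.

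**Figure D1:**
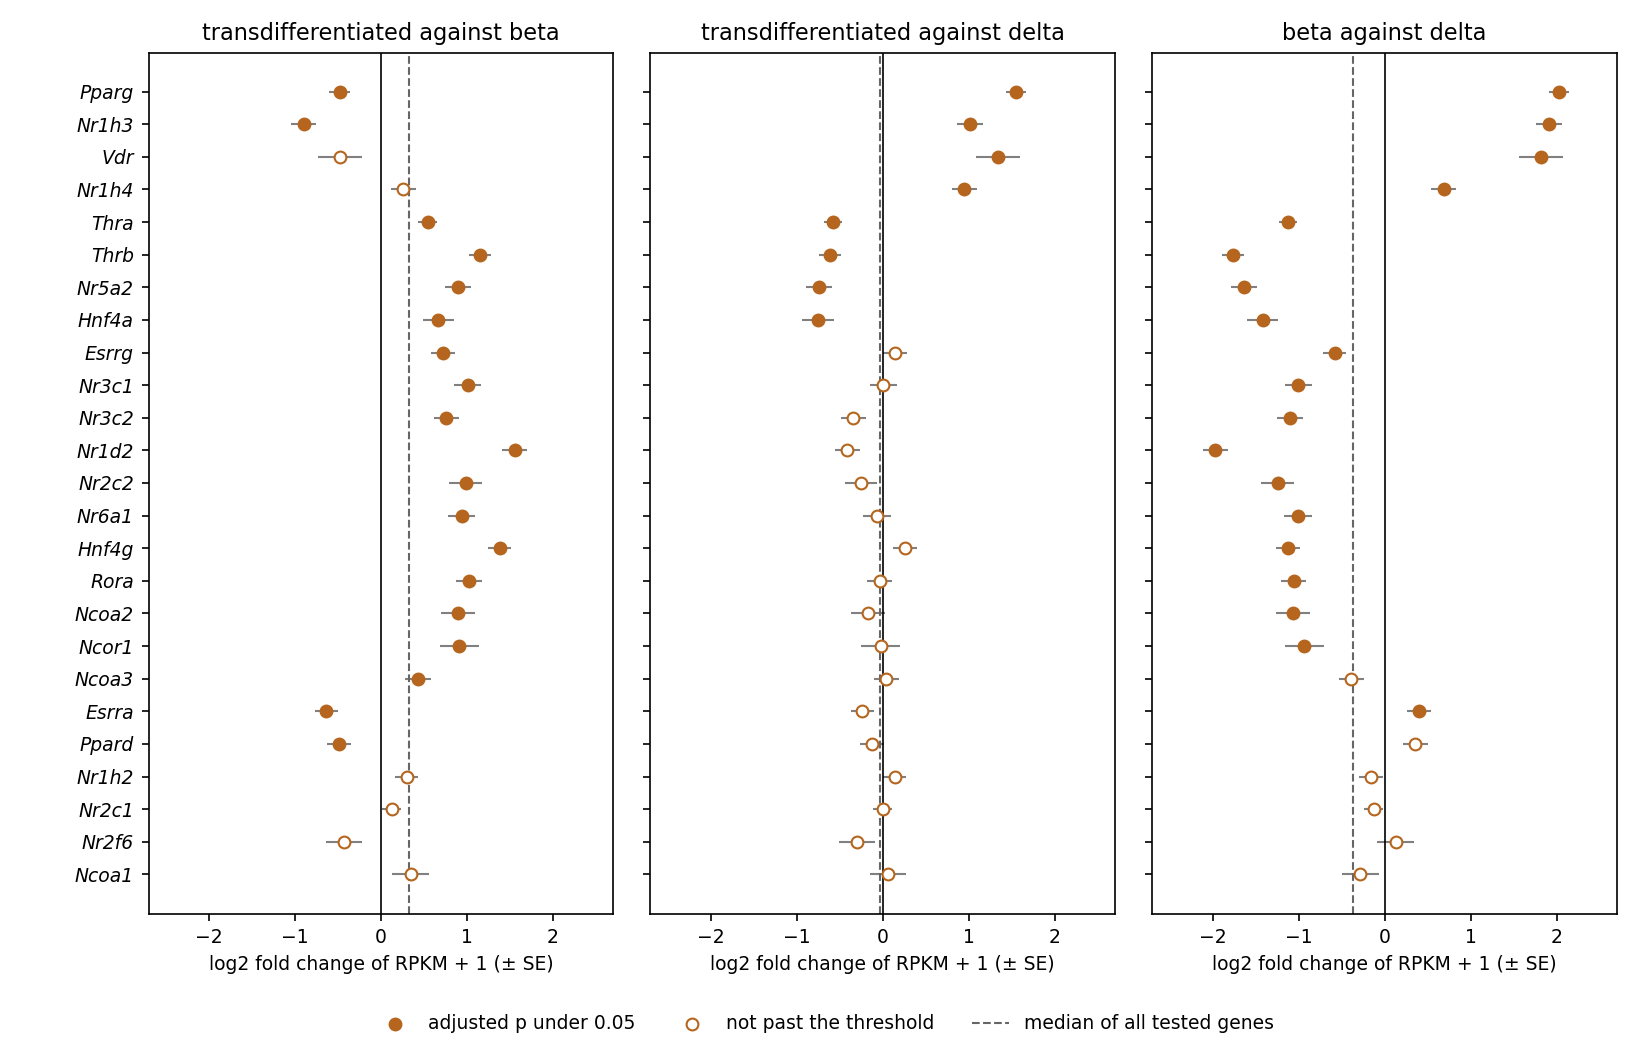
Log2 fold change of RPKM + 1 with its standard error for the 25 tested genes, in 3 panels: transdifferentiated against beta cells, transdifferentiated against delta cells, and beta against delta cells. Filled points passed the adjusted p threshold of 0.05, open points did not, and the dashed line is the median of all 13022 tested genes. The 4 genes at the top lie right of 0 against delta cells and the next 4 lie left of it, while the 17 genes below them did not pass in that panel.

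The order of the populations was read from their means. For 15 of the 25 tested genes the transdifferentiated mean lay between the beta and delta means, for 7 it lay above both and for 3 below both. The matching shares of all tested genes are not given here, so these counts do not set the members apart from other genes. The libraries of the transdifferentiated and beta populations did not overlap for 23 of the 25 genes, beside 76% of all tested genes. Against delta cells this held for 16 of the 25, beside 63.4%, and between beta and delta cells for 22, beside 80.9%. In beta cells the female pool exceeded the male pool for 18 of the 25 genes (72%), beside 64.8% of all tested genes. In transdifferentiated cells this held for 11 of 25 (44%), beside 46.1%, and in delta cells for 12 of 25 (48%), beside 44.3%. By mean RPKM the most abundant members were Ncor1 at 27.3 ± 0.703 (SD, n = 2) in transdifferentiated cells, Vdr at 36.5 ± 12.9 in beta cells and Nr1d2 at 33.1 ± 5.15 in delta cells.

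**Figure D2:**
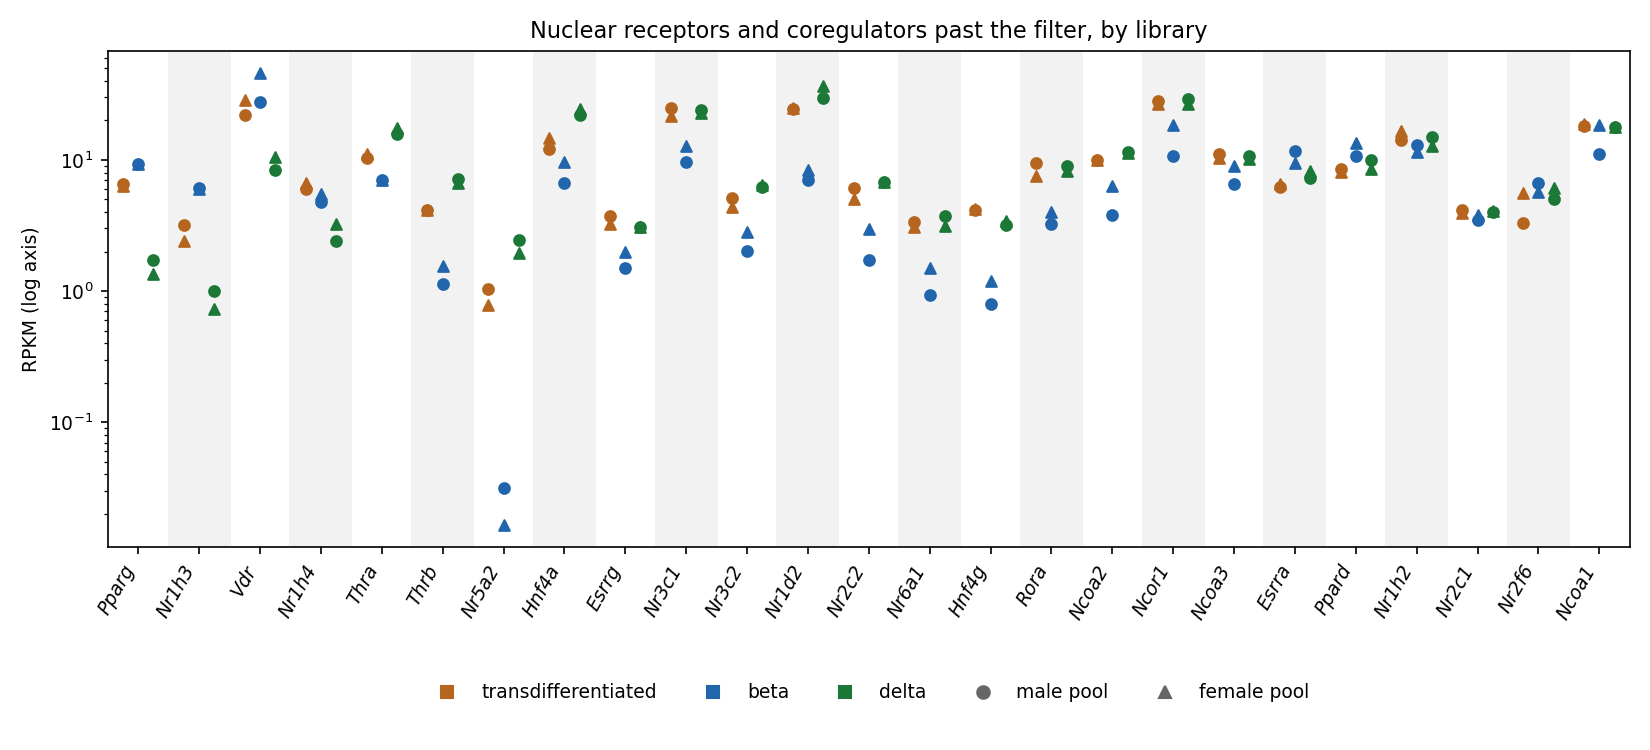
RPKM of the 25 tested genes in each of the 6 libraries, on a log axis, with circles for male pools and triangles for female pools. Colours give the population. Pparg, Nr1h3 and Vdr are lowest in delta cells, Nr5a2 lies at 0.0314 and 0.0166 RPKM in beta cells, and for most genes in the middle of the plot the transdifferentiated points sit beside the delta points.

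RefSeq promoter windows (GRCm38.p6) were searched for AGGTCA on either strand in the 250 bases before each annotated start, since nuclear receptors are known to regulate genes of their own family. Windows existed for 30 of the 36 genes. The hexamer was present in 7 of their 45 windows (15.6%), beside 14.0% of all 32851 windows, and in 6 of the 30 genes (20%), beside 15.8% of all 27025 genes. The genes with a match were Nr1d2, Nr1h4, Nr5a2, Nr6a1, Pparg and Thrb. The lines below show the surroundings of each match on the strand of the gene, with the hexamer or its reverse complement in capitals. A match is a stretch of letters and not a bound site.
Pparg, first window (chr6:115361079-115361143, plus strand): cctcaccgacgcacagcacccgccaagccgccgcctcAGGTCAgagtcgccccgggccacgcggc
Pparg, second window (chr6:115362303-115362348, plus strand): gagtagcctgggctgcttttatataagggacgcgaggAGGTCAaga
Nr1h4 (chr10:89506830-89506908, minus strand): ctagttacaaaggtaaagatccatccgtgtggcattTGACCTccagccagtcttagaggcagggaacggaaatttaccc
Thrb (chr14:17660739-17660818, plus strand): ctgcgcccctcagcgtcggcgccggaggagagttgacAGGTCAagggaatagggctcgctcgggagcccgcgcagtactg
Nr5a2 (chr1:136960470-136960549, minus strand): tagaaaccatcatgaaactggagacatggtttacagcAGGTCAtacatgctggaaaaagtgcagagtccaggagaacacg
Nr1d2 (chr14:18239141-18239220, minus strand): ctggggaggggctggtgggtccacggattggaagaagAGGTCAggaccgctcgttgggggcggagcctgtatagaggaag
Nr6a1, first match (chr2:38784564-38784643, minus strand): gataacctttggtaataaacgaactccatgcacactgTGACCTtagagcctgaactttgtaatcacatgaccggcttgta
Nr6a1, second match (chr2:38784518-38784597, minus strand): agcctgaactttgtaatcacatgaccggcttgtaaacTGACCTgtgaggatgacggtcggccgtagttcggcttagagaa
The match began 28 and 9 bases before the annotated start in the 2 Pparg windows, 184 bases before it for Thrb, 64 for Nr5a2, 77 for Nr1d2, 214 for Nr1h4, and 91 and 45 for Nr6a1. Genes of opposite patterns stand in this set, with Pparg and Nr1h4 higher and Thrb and Nr5a2 lower in transdifferentiated than in delta cells.

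Receptors of fatty acids, oxysterols, bile acids and vitamin D held the 4 genes that were higher in both insulin-expressing populations than in delta cells. Pparg (chr6:115360951-115490399, plus strand, GRCm38) encodes the fatty acid receptor that drives fat cell differentiation and is the target of the thiazolidinedione drugs. Pparg had 6.51 and 6.34 RPKM in transdifferentiated cells, 9.36 and 9.34 RPKM in beta cells and 1.74 and 1.36 RPKM in delta cells. No libraries of different populations overlapped for this gene, one of those with AGGTCA near a start, and the transdifferentiated pools lay nearer to the beta pools than to the delta pools. On the log2 scale Pparg differed from delta cells by 1.55 (adjusted p = 0.000941, SE 0.12) and from beta cells by -0.48 (adjusted p = 0.0155, SE 0.12). Beta cells differed from delta cells by 2.03 (adjusted p = 4.27e-05, SE 0.12). The call against delta cells held under each of the 12 alternative fits, and the call against beta cells was lost when either transdifferentiated library was left out, with adjusted p up to 0.0737.

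Nr1h3 (chr2:91184061-91202834, minus strand) encodes LXR alpha, an oxysterol receptor that raises cholesterol export. It had 3.17 and 2.41 RPKM in the transdifferentiated pools, against 6.07 and 5.97 RPKM in the beta pools and 1.01 and 0.735 RPKM in the delta pools. The 3 populations did not overlap, and beta cells were highest. Transdifferentiated cells differed from delta cells by a log2 fold change of 1.01 (adjusted p = 0.00741, SE 0.15) and from beta cells by -0.90 (adjusted p = 0.00323, SE 0.15). The call against delta cells was lost without the female delta library, at adjusted p = 0.0644. Its paralog Nr1h2, which encodes LXR beta, had 14.2 and 16.5 RPKM in transdifferentiated cells, 13.1 and 11.4 RPKM in beta cells and 15.01 and 12.7 RPKM in delta cells. The transdifferentiated pools lay above the beta pools and overlapped the delta pools, and Nr1h2 passed no comparison, with log2 fold changes of 0.30 against beta cells and 0.14 against delta cells.

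Vdr (chr15:97854425-97910630, minus strand), the receptor of the active form of vitamin D, was among the most abundant members and differed widely between pools. It had 22.1 and 28.8 RPKM in transdifferentiated cells, 27.4 and 45.6 RPKM in beta cells and 8.32 and 10.5 RPKM in delta cells. The female pool was above the male pool in each population, and the transdifferentiated and beta pools overlapped. The log2 fold change of transdifferentiated against delta cells was 1.34 (adjusted p = 0.0182, SE 0.25), and that of beta against delta cells was 1.82 (adjusted p = 0.00122, SE 0.25). The first of these calls was lost when any 1 of the transdifferentiated or delta libraries was left out, and with no filter on low values, at adjusted p up to 0.121. Against beta cells the value was -0.47 (adjusted p = 0.160, SE 0.25). That comparison passed after scaling, at -0.87 (adjusted p = 0.0208), and with the pools as blocks, at adjusted p = 0.024.

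Nr1h4 (chr10:89454234-89533585, minus strand) encodes FXR, the bile acid receptor of liver and intestine. It had 5.99 and 6.69 RPKM in the transdifferentiated pools, against 4.79 and 5.46 RPKM in the beta pools and 2.41 and 3.24 RPKM in the delta pools. Transdifferentiated cells were highest here, above beta cells in both pools, and delta cells were lowest. Its log2 fold change was 0.95 (adjusted p = 0.00929, SE 0.15) against delta cells and 0.26 (adjusted p = 0.176, SE 0.15) against beta cells, the second of which did not pass. Leaving out the female transdifferentiated library or the male delta library ended the call against delta cells, at adjusted p up to 0.0762. For beta against delta cells the value was 0.69 (adjusted p = 0.00717, SE 0.15), a call lost without the male delta library, at adjusted p = 0.0606.

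Ppard, the fatty acid receptor found in most tissues, had 8.58 and 8.04 RPKM in transdifferentiated cells, 10.8 and 13.4 RPKM in beta cells and 9.90 and 8.47 RPKM in delta cells. Beta cells were highest, and the transdifferentiated pools overlapped the delta pools. Against beta cells the log2 fold change of Ppard was -0.48 (adjusted p = 0.0268, SE 0.14) and the call was lost with no filter on low values, without either transdifferentiated library and without the female beta library, at adjusted p up to 0.119. Ppara, the fatty acid receptor of fasting liver, stayed under 1 RPKM in every library. It had 0.458 and 0.335 RPKM in the transdifferentiated pools, against 0.0604 and 0.204 RPKM in the beta pools and 0.215 and 0.249 RPKM in the delta pools.

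Macrophages also express Pparg and Nr1h3, and the summed RPKM of 7 macrophage markers was 46.7 and 52.4 in transdifferentiated cells, 153 and 170.2 in beta cells and 76.3 and 90.7 in delta cells. Beta libraries held the highest sums, as they did for these 2 receptors. C1qa and Cd68 made up most of the sum outside beta cells. C1qa had 29.4 and 32.6 RPKM in transdifferentiated cells, 34.9 and 40.5 RPKM in beta cells and 59.3 and 76.9 RPKM in delta cells, and set the order of the transdifferentiated and delta sums. C1qb, a subunit of the same complement protein, had 0.220 and 0.843 RPKM in transdifferentiated cells, 9.76 and 12.3 RPKM in beta cells and 0.0542 and 0.0586 RPKM in delta cells. Of the defining macrophage genes, Lyz2 had 0 and 0.145 RPKM in transdifferentiated cells, 5.82 and 7.99 RPKM in beta cells and 0 and 0 RPKM in delta cells. Adgre1 had 0.0246 and 0.0848 RPKM in transdifferentiated cells, 0.872 and 1.25 RPKM in beta cells and 0 and 0 RPKM in delta cells, so both were at 0 in the delta libraries. The part of macrophage RNA in the levels of these 2 receptors was not tested.

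The thyroid hormone receptors lay between the populations. Thra (chr11:98740638-98769006, plus strand) and Thrb (chr14:17660261-18038090, plus strand) encode the 2 receptors of triiodothyronine. Thra had 10.4 and 11.1 RPKM in transdifferentiated cells, 7.07 and 7.07 RPKM in beta cells and 15.8 and 17.3 RPKM in delta cells. Thrb had 4.15 and 4.17 RPKM in transdifferentiated cells, 1.12 and 1.54 RPKM in beta cells and 7.09 and 6.67 RPKM in delta cells. For both genes delta cells were highest, beta cells lowest and transdifferentiated cells in between, with no overlap. The log2 fold change of Thrb was 1.15 (adjusted p = 0.000835, SE 0.13) against beta cells and -0.61 (adjusted p = 0.0276, SE 0.13) against delta cells. That of Thra was 0.54 (adjusted p = 0.00649, SE 0.11) against beta cells and -0.58 (adjusted p = 0.0177, SE 0.11) against delta cells. Beta cells differed from delta cells by -1.12 (adjusted p = 0.000277, SE 0.11) for Thra and -1.76 (adjusted p = 9.94e-05, SE 0.13) for Thrb. The calls against delta cells were lost for both genes (and for Thrb also with a pseudocount of 0.1 or no filter) when any 1 of the transdifferentiated or delta libraries was left out, at adjusted p up to 0.177 for Thra and 0.155 for Thrb. After scaling, Thra no longer passed against beta cells, at 0.18 (adjusted p = 0.214). Exons of Thra and Nr1d1 overlap on opposite strands over 263 bp, 5.7% of the Thra exon length, and the library kit keeps no strand, so reads there cannot be assigned.

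Among the steroid receptors, the glucocorticoid and mineralocorticoid receptors were expressed in all populations and the sex steroid receptors were not past the filter. Nr3c1 encodes the glucocorticoid receptor. It had 25.04 and 21.7 RPKM in transdifferentiated cells, 9.57 and 12.8 RPKM in beta cells and 23.9 and 22.6 RPKM in delta cells. The beta pools lay below all others, and the transdifferentiated and delta pools overlapped. Nr3c1 had a log2 fold change of 1.01 (adjusted p = 0.00250, SE 0.16) against beta cells and 0.01 (adjusted p = 0.988, SE 0.16) against delta cells. Nr3c2 (chr8:76899442-77245012, plus strand), the mineralocorticoid receptor, which binds aldosterone and also glucocorticoids, had 5.15 and 4.41 RPKM in the transdifferentiated pools, against 2.03 and 2.82 RPKM in the beta pools and 6.24 and 6.37 RPKM in the delta pools. Here the transdifferentiated pools lay between the others without overlap. It differed from beta cells by 0.76 (adjusted p = 0.00598, SE 0.15) and from delta cells by -0.34 (adjusted p = 0.202, SE 0.15), the second of which did not pass. Both genes were lower in beta than in delta cells, by log2 fold changes of -1.003 for Nr3c1 and -1.10 for Nr3c2, and these calls and those against beta cells held under all 12 alternative fits.

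The HNF4 receptors bind DNA as dimers without needing a hormone and control liver and gut genes. Hnf4a (chr2:163506808-163572910, plus strand) had 12.2 and 14.6 RPKM in transdifferentiated cells, 6.61 and 9.69 RPKM in beta cells and 21.9 and 24.4 RPKM in delta cells. Delta cells were highest, and the populations did not overlap. Hnf4a differed by 0.67 (adjusted p = 0.0216, SE 0.18) against beta cells and -0.75 (adjusted p = 0.0431, SE 0.18) against delta cells. The first did not pass after scaling, at 0.30 (adjusted p = 0.161, or 0.0454 with the replicate block added to the scaling, which passed), nor with no filter, without either transdifferentiated library or without the male beta library, at adjusted p between 0.0553 and 0.118. The second was lost when any 1 of the transdifferentiated or delta libraries was left out, with a pseudocount of 0.1 and with no filter, at adjusted p up to 0.247. Its paralog Hnf4g (chr3:3508030-3658052, plus strand) had 4.13 and 4.19 RPKM in the transdifferentiated pools, against 0.793 and 1.19 RPKM in the beta pools and 3.20 and 3.42 RPKM in the delta pools. Transdifferentiated cells were highest for Hnf4g, slightly above delta cells and well above beta cells, again without overlap. The log2 fold change against beta cells, 1.38 (adjusted p = 0.000578, SE 0.14), held under every alternative, while that against delta cells was 0.26 (adjusted p = 0.293, SE 0.14). Beta against delta cells gave -1.42 (adjusted p = 0.000877, SE 0.18) for Hnf4a and -1.12 (adjusted p = 0.000725, SE 0.14) for Hnf4g.

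Nr5a2 (chr1:136842571-136960448, minus strand) encodes LRH-1, a receptor of acinar, liver and intestinal cells. It had 1.04 and 0.778 RPKM in transdifferentiated cells, 0.0314 and 0.0166 RPKM in beta cells and 2.44 and 1.95 RPKM in delta cells. These are 77 and 50 reads in transdifferentiated cells, 4 and 2 reads in beta cells and 244 and 180 reads in delta cells, so beta cells held almost none. Because a pseudocount of 1 shrinks differences of low genes, the ratio of summed reads, scaled to library depth, was also taken, with exact intervals that cover counting error only. It was 37.96 (95% interval 16.96 to 105) for transdifferentiated over beta cells and 0.417 (95% interval 0.340 to 0.510) for transdifferentiated over delta cells. The fitted log2 fold changes were 0.90 (adjusted p = 0.00346, SE 0.15) against beta cells and -0.74 (adjusted p = 0.0237, SE 0.15) against delta cells. Nr5a2 was past the filter only through its delta libraries, since of the others only the male transdifferentiated library reached 1 RPKM. Its comparisons with delta cells, counted above, therefore start from a gene picked where delta cells are high. The call against delta cells was lost when any 1 of the transdifferentiated or delta libraries was left out, with a pseudocount of 0.1 and with no filter, at adjusted p up to 0.106. The male beta pool held the highest acinar marker sum and 4 reads of Nr5a2. The acinar regulator Rbpjl had 0 and 0.0160 RPKM in transdifferentiated cells, 0.235 and 0.00853 RPKM in beta cells and 0.0103 and 0.0223 RPKM in delta cells. The part of acinar RNA in the level of Nr5a2 was not tested.

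The remaining orphan receptors, whose natural ligands are unknown or disputed, split by level. Nr6a1 (chr2:38723370-38927688, minus strand), which encodes GCNF, a repressor of pluripotency genes in the early mouse embryo, had 3.34 and 3.08 RPKM in transdifferentiated cells, 0.938 and 1.49 RPKM in beta cells and 3.74 and 3.11 RPKM in delta cells. Beta cells were lowest, and the transdifferentiated pools overlapped the delta pools. It differed from beta cells by 0.94 (adjusted p = 0.00372, SE 0.16) and from delta cells by -0.07 (adjusted p = 0.836, SE 0.16). Nr2c2 (chr6:92091390-92174294, plus strand), the testicular receptor TR4, had 6.05 and 5.04 RPKM in the transdifferentiated pools, against 1.73 and 2.97 RPKM in the beta pools and 6.78 and 6.77 RPKM in the delta pools. The populations did not overlap for Nr2c2, with beta cells lowest. It differed from beta cells by 0.99 (adjusted p = 0.00587, SE 0.19) and from delta cells by -0.25 (adjusted p = 0.460, SE 0.19). Exons of Mrps25 on the opposite strand cover 4590 bp, 30.7% of the Nr2c2 exon length, so this level is uncertain. Its paralog Nr2c1, TR2, had 4.14 and 3.94 RPKM in transdifferentiated cells, 3.46 and 3.79 RPKM in beta cells and 4.004 and 4.08 RPKM in delta cells, and passed no comparison. The Nr2c1 libraries of transdifferentiated and delta cells overlapped, with both beta pools below them. Nr2f6, a COUP-TF relative, had 3.32 and 5.57 RPKM in the transdifferentiated pools, against 6.62 and 5.74 RPKM in the beta pools and 5.02 and 6.14 RPKM in the delta pools. Its male transdifferentiated pool was the lowest of the 6, and it passed no comparison before scaling and was lower than in beta cells after it, at -0.77 (adjusted p = 0.0288). Exons of Ocel1 on the opposite strand cover 54.4% of its exon length, which leaves its level uncertain.

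The estrogen-related receptors bind no estrogen and act with PGC-1 coactivators on genes of oxidative metabolism. Their 2 expressed members ran in opposite directions. Esrra (chr19:6910977-6921813, minus strand) had 6.16 and 6.58 RPKM in transdifferentiated cells, 11.6 and 9.42 RPKM in beta cells and 7.22 and 8.16 RPKM in delta cells. It was lowest in transdifferentiated cells and highest in beta cells, without overlap. Transdifferentiated cells differed by -0.64 (adjusted p = 0.00823, SE 0.13) against beta cells and -0.24 (adjusted p = 0.321, SE 0.13) against delta cells. The call against beta cells was lost without the male transdifferentiated library, at adjusted p = 0.0578. Esrrg (chr1:187608791-188214885, plus strand) had 3.75 and 3.27 RPKM in the transdifferentiated pools, against 1.49 and 1.99 RPKM in the beta pools and 3.08 and 3.10 RPKM in the delta pools. It was highest in transdifferentiated cells and lowest in beta cells. Esrrg differed by 0.72 (adjusted p = 0.00568, SE 0.14) against beta cells, which held under every alternative, and 0.14 (adjusted p = 0.588, SE 0.14) against delta cells. Between beta and delta cells the 2 genes differed by 0.40 (adjusted p = 0.0393, SE 0.13) for Esrra and -0.58 (adjusted p = 0.0108, SE 0.14) for Esrrg, and the second did not pass after scaling, at -0.29 (adjusted p = 0.0774), nor without either delta library, at adjusted p up to 0.0583. The value of Esrra was lost with no filter on low values and without either transdifferentiated library, the male beta library or either delta library, at adjusted p up to 0.224.

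REV-ERB and ROR receptors compete for the same DNA elements in clock genes, REV-ERBs as repressors and RORs as activators. Nr1d2 (chr14:18204054-18239127, minus strand), REV-ERB beta, showed the largest log2 fold change against beta cells among the tested members at a pseudocount of 1. It had 24.3 and 24.7 RPKM in transdifferentiated cells, 6.97 and 8.42 RPKM in beta cells and 29.4 and 36.7 RPKM in delta cells. The beta pools lay far below the others, and the transdifferentiated pools lay just under the delta pools. Its log2 fold change was 1.56 (adjusted p = 0.000463, SE 0.15) against beta cells and -0.41 (adjusted p = 0.126, SE 0.15) against delta cells. Rora (chr9:68653786-69388246, plus strand) had 9.39 and 7.50 RPKM in the transdifferentiated pools, against 3.26 and 4.03 RPKM in the beta pools and 9.05 and 8.25 RPKM in the delta pools. It differed from beta cells by 1.02 (adjusted p = 0.00203, SE 0.15) and from delta cells by -0.04 (adjusted p = 0.913, SE 0.15), and its transdifferentiated and delta pools overlapped. Beta cells differed from delta cells by -1.97 (adjusted p = 9.84e-05, SE 0.15) for Nr1d2 and -1.06 (adjusted p = 0.00123, SE 0.15) for Rora. All 4 of the calls in this paragraph held under every alternative fit.

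All 4 tested coregulators had their lowest mean in beta cells before scaling. The matching share of all tested genes is not given here, and 46.3% of them were called lower in beta than in delta cells. After scaling, Ncoa1 and Ncoa3 differed by -0.04 and 0.07 in transdifferentiated against beta cells. In beta against delta cells they differed by 0.12 and -0.0006, and none of these values passed. Ncoa2 (chr1:13139105-13374083, minus strand), a p160 coactivator, had 10.04 and 9.92 RPKM in transdifferentiated cells, 3.78 and 6.32 RPKM in beta cells and 11.5 and 11.2 RPKM in delta cells. Ncor1 (chr11:62316426-62458541, minus strand), the scaffold of a corepressor complex with histone deacetylase 3, had 27.8 and 26.8 RPKM in the transdifferentiated pools, against 10.7 and 18.4 RPKM in the beta pools and 29.1 and 26.4 RPKM in the delta pools. For both genes the female beta pool stood well above the male beta pool and still below the other populations. The log2 fold change against beta cells was 0.89 (adjusted p = 0.00968, SE 0.20) for Ncoa2 and 0.91 (adjusted p = 0.0154, SE 0.23) for Ncor1. Against delta cells it was -0.18 (adjusted p = 0.635, SE 0.20) for Ncoa2 and -0.02 (adjusted p = 0.970, SE 0.23) for Ncor1. After scaling Ncor1 no longer passed against beta cells, at 0.53 (adjusted p = 0.0569), nor in beta against delta cells, at -0.53 (adjusted p = 0.0546). With the replicate block added to the scaling both passed, at adjusted p = 0.0486 and 0.0468. The first of these calls was also lost with no filter and without either transdifferentiated library, at adjusted p up to 0.0822, and the second without the male delta library, at adjusted p = 0.0676. That of Ncoa2 against beta cells was lost without the male transdifferentiated library, at adjusted p = 0.0585. Ncoa3 had 11.05 and 10.4 RPKM in transdifferentiated cells, 6.60 and 8.98 RPKM in beta cells and 10.6 and 10.1 RPKM in delta cells, and its value against beta cells, 0.43 (adjusted p = 0.0493, SE 0.15), was kept by 2 of the 12 alternatives, the replicate block and the fit without the female beta library. Without any other 1 library its adjusted p lay between 0.0929 and 0.191. Ncoa1 had 18.3 and 18.8 RPKM in the transdifferentiated pools, against 11.1 and 18.6 RPKM in the beta pools and 17.7 and 17.8 RPKM in the delta pools, with a female beta pool at the level of the other populations, and passed no comparison.

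**Figure D3:**
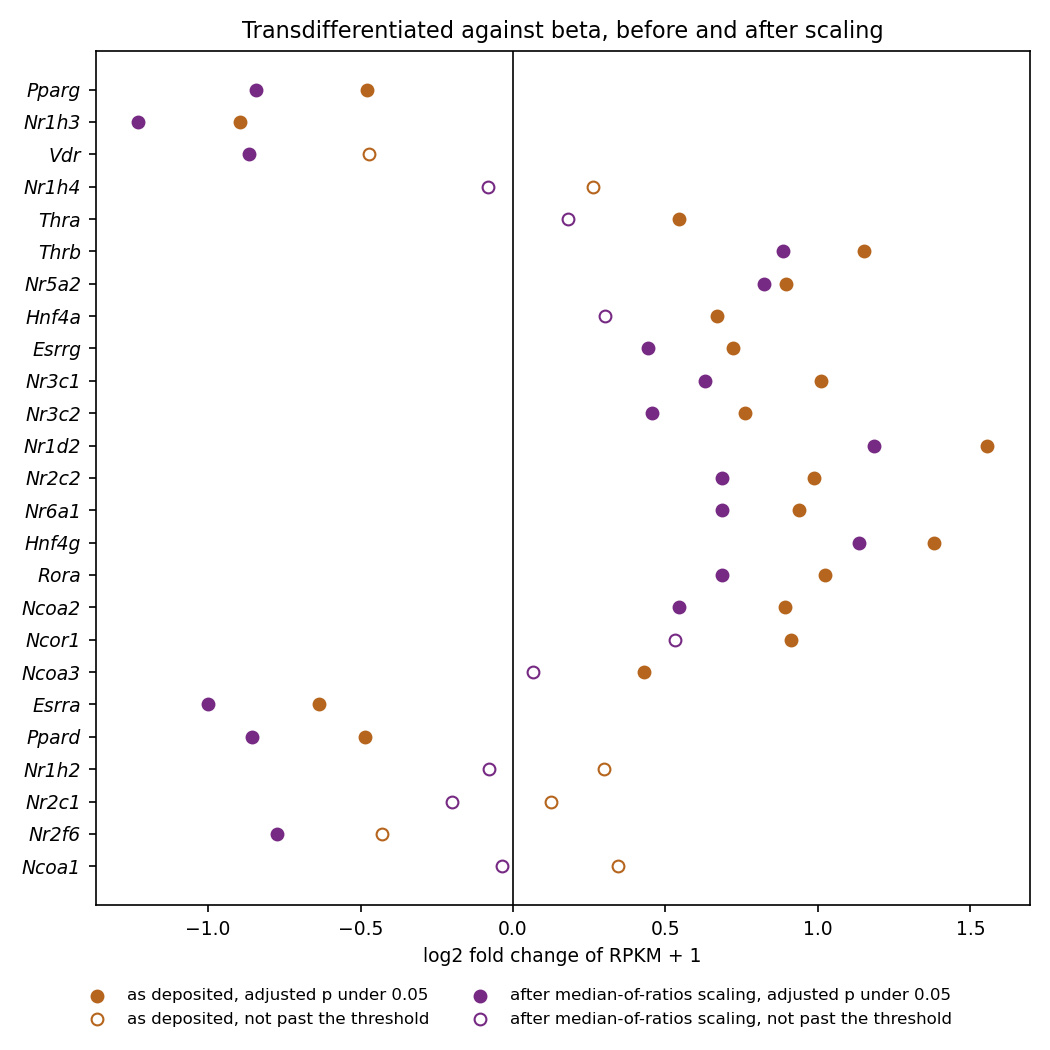
Log2 fold change of RPKM + 1 in transdifferentiated against beta cells for the 25 tested genes, as deposited and after median-of-ratios scaling. Filled points passed the adjusted p threshold of 0.05 and open points did not. All values move left with scaling, by which Thra, Hnf4a, Ncor1 and Ncoa3 leave the called genes on the right, and Vdr and Nr2f6 join those on the left.

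The delta libraries, which held the highest levels of Thra, Thrb, Hnf4a, Nr5a2 and Nr1d2, also held the most alpha cell RNA, by the marker sums given above. The genes listed as markers of PP cells, another islet endocrine type, ran in the same order. Ppy and Pyy summed to 11877 and 12041 RPKM in transdifferentiated cells, 802 and 558 in beta cells and 36498 and 37076 in delta cells. The 5 delta markers also ran in this order. RNA of PP cells and expression of Ppy or Pyy in delta cells themselves therefore cannot be told apart here. None of the 5 alpha markers was at 0 in any library. The part of alpha and PP cell RNA in the levels of those 5 genes was not tested. Endothelial and mesenchymal cells also express nuclear receptors. Their marker sums lay between 3.63 and 7.94 RPKM (endothelial) and between 0.0927 and 0.326 RPKM (mesenchymal) over the libraries, and 2 of 5 and 0 of 5 of those markers passed the filter.

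The 11 genes below the filter were Esrrb, Ppara, Ppargc1a, Ppargc1b, Esr1, Esr2, Pgr, Nr2e3, Nr2f1, Nr2f2 and Rorb. Most had few reads in every population. The estrogen receptors are of interest in islets, since estradiol is known to protect beta cells in rodents. Esr1 had 7 and 7 reads in transdifferentiated cells, 5 and 7 reads in beta cells and 10 and 7 reads in delta cells. Esr2 had 1 read in the male delta pool and 0 in the others, and Nr2f1 had 1 read in the female beta pool and 0 in the others, where a count of 0 allows up to 3 reads. Expression of these 2 genes was therefore not detectable at this depth beyond single reads.

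Pgr, the progesterone receptor, had 16 and 7 reads in transdifferentiated cells, 1 and 1 reads in beta cells and 42 and 49 reads in delta cells. Scaled to library depth, the ratio of reads was 20.6 (95% interval 5.10 to 180.4) for transdifferentiated over beta cells and 0.352 (95% interval 0.213 to 0.561) for transdifferentiated over delta cells. The order of the populations was that of Nr5a2, with beta cells near the floor, and the highest value was 0.366 RPKM, in the female delta pool.

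PGC-1 alpha and beta, the inducible coactivators of PPARs and ERRs, are encoded by Ppargc1a and Ppargc1b. Ppargc1a had 0.545 and 0.459 RPKM in the transdifferentiated pools, against 0.232 and 0.200 RPKM in the beta pools and 0.903 and 1.01 RPKM in the delta pools. Delta cells were highest and beta cells lowest, without overlap. Ppargc1b had 0.780 and 0.851 RPKM in transdifferentiated cells, 0.395 and 0.637 RPKM in beta cells and 0.694 and 0.751 RPKM in delta cells, with beta cells lowest again. Nr2f2, COUP-TFII, had 0.263 and 0.189 RPKM in the transdifferentiated pools, against 0.0572 and 0.101 RPKM in the beta pools and 0.339 and 0.223 RPKM in the delta pools, where the transdifferentiated and delta pools overlapped. Esrrb, a pluripotency factor in the mouse embryo, had 6 reads in each delta pool and at most 1 read in any other. Nr2e3, a photoreceptor gene, had 1 to 6 reads and Rorb 0 to 5 reads in every library. With no filter on low values, Ppargc1a, Pgr and Nr2f2 passed in beta against delta cells, at log2 fold changes of -0.68, -0.40 and -0.25, the last at adjusted p = 0.0499.

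**Figure D4:**
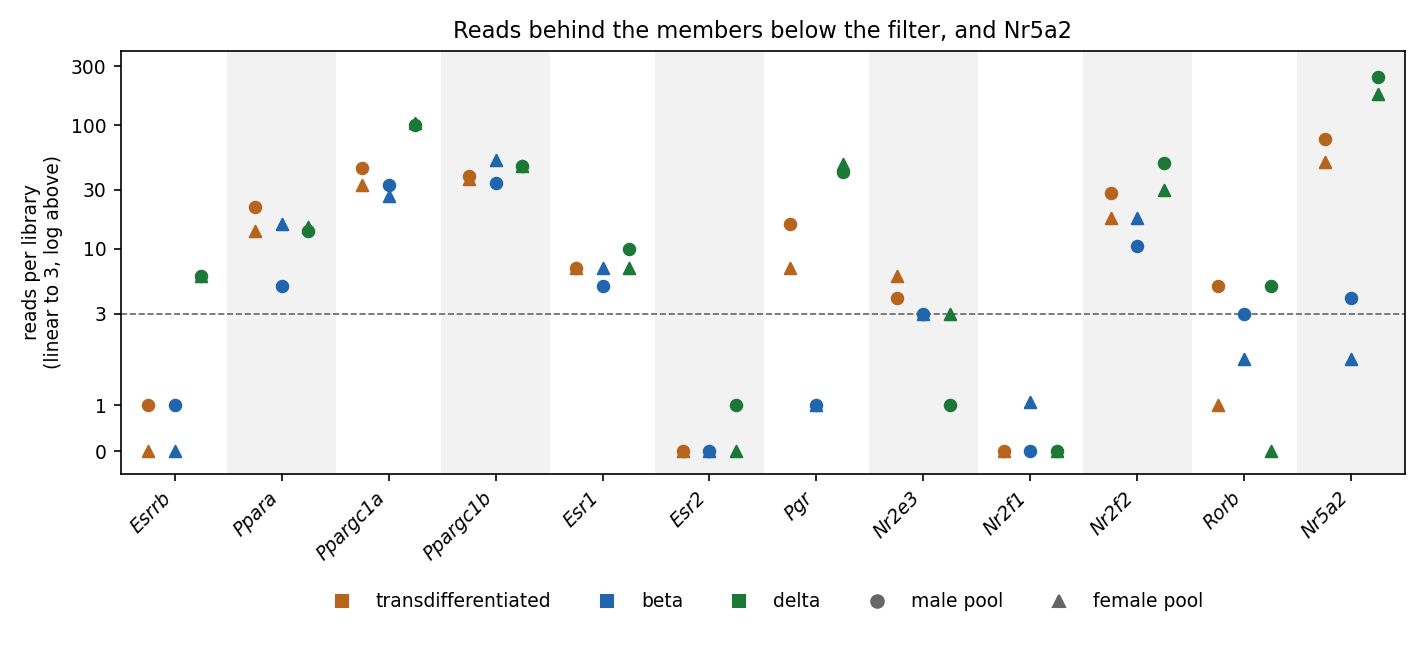
Reads per library for the 11 genes below the filter and for Nr5a2, on an axis that is linear up to 3 reads and logarithmic above, with the dashed line at 3 reads. Circles are male pools and triangles female pools. Pgr and Nr5a2 hold at most 4 reads in beta cells and the most reads in delta cells, with transdifferentiated cells in between.

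Other members of the receptor family that were not among the 36 genes were drawn from a textbook list of 18, of which 8 passed the filter. Against beta cells 4 (50%) were higher and none lower in transdifferentiated cells, beside 42.5% and 8.46% of all tested genes. Against delta cells 2 were higher and 2 lower, beside 5.53% and 7.2%. Their median log2 fold change was 0.37 against beta cells and -0.23 against delta cells. Nr4a1, an immediate early orphan receptor induced by calcium and cAMP, had 41.2 and 28.7 RPKM in transdifferentiated cells, 6.13 and 8.04 RPKM in beta cells and 68.04 and 28.95 RPKM in delta cells, with a difference of 2.14 (adjusted p = 0.00431, SE 0.38) against beta cells. Nr4a2, its relative, had 4.27 and 4.57 RPKM in the transdifferentiated pools, against 3.46 and 5.02 RPKM in the beta pools and 2.06 and 1.74 RPKM in the delta pools, and differed from delta cells by 0.90 (adjusted p = 0.0171, SE 0.17). That call was lost with no filter and when any 1 of the transdifferentiated or delta libraries was left out, at adjusted p up to 0.125. Rarg, a retinoic acid receptor, had 6.68 and 6.14 RPKM in transdifferentiated cells, 4.03 and 4.72 RPKM in beta cells and 11.2 and 10.6 RPKM in delta cells and was lower than in delta cells, at -0.68 (adjusted p = 0.0138, SE 0.12), a call likewise lost when any 1 of those 4 libraries was left out, at adjusted p up to 0.106. Nr1d1, REV-ERB alpha, had 20.7 and 22.1 RPKM in the transdifferentiated pools, against 11.8 and 13.2 RPKM in the beta pools and 31.2 and 39.1 RPKM in the delta pools, in the same order as Nr1d2, with 0.73 (adjusted p = 0.00524, SE 0.14) against beta cells. It did not pass after scaling, at adjusted p = 0.0686, and passed with the replicate block added to the scaling. After scaling 1 of the 8 was higher and 1 lower against beta cells, beside 27.8% and 26.1% of all tested genes.

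Other coregulators were taken as a list of 25, with 23 tested. In transdifferentiated cells 13 were higher (56.5%) and none lower against beta cells, beside 42.5% of all tested genes higher and 8.46% lower, while against delta cells none was higher and 1 was lower. In beta against delta cells none was higher and 15 were lower (65.2%), beside 46.3% of all tested genes lower. The median log2 fold change of the 23 was 0.57 against beta cells and -0.11 against delta cells. The largest were Lcor and Nrip1, ligand-dependent corepressors, Sirt1, a deacetylase, and Ncoa7, a coactivator. Lcor had 5.76 and 5.19 RPKM in transdifferentiated cells, 0.742 and 1.61 RPKM in beta cells and 6.82 and 6.18 RPKM in delta cells, a difference of 1.60 (adjusted p = 0.00114, SE 0.20) from beta cells. Nrip1 had 7.23 and 5.53 RPKM in the transdifferentiated pools, against 1.62 and 2.18 RPKM in the beta pools and 9.73 and 9.17 RPKM in the delta pools, a difference of 1.34 (adjusted p = 0.000983, SE 0.16) from beta cells. Sirt1 and Ncoa7 differed from beta cells by 1.27 (adjusted p = 0.000625, SE 0.13) and 1.26 (adjusted p = 0.000421, SE 0.11). After scaling the counts were 10 higher and 3 lower against beta cells, beside 27.8% and 26.1% of all tested genes, and 2 higher and 9 lower in beta against delta cells, beside 27.8% and 29.7%.

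Known target genes of these receptors were taken from textbook lists, and their counts are to be read beside the shares of all tested genes given above. These and the other gene lists were chosen with earlier results of these data known, so their counts only describe the listed genes. The median log2 fold change of the tested targets against beta cells was 0.14 for PPAR, -0.07 for ERR and PGC-1, -0.31 for LXR, -0.31 for the glucocorticoid receptor, -0.01 for the thyroid hormone receptors, 0.44 for REV-ERB and ROR and 0.29 for HNF4A. Against delta cells all 7 medians lay between -0.20 and 0.23. Of 12 tested PPAR targets, 3 were higher and none lower in transdifferentiated against beta cells, and none was higher and 1 lower against delta cells. That 1 was Pdk4, a brake on glucose oxidation, with 2.11 and 2.01 RPKM in transdifferentiated cells, 0.119 and 0.348 RPKM in beta cells and 13.01 and 12.3 RPKM in delta cells, with a difference of -2.16 (adjusted p = 0.000503, SE 0.13) against delta cells. The fatty acid oxidation enzymes Acadm and Acadl were higher than in beta cells, at 0.77 (adjusted p = 0.00364, SE 0.13) and 0.53 (adjusted p = 0.00972, SE 0.12). The call of Acadl was lost after scaling, at adjusted p = 0.341, and without the male transdifferentiated library. Of 14 tested ERR and PGC-1 targets, 3 were higher and 3 lower against beta cells and none passed against delta cells. Perm1, a PGC-1 and ERR induced regulator of muscle, had 3.33 and 2.96 RPKM in the transdifferentiated pools, against 0.618 and 0.677 RPKM in the beta pools and 2.73 and 2.58 RPKM in the delta pools, a difference of 1.33 (adjusted p = 0.000441, SE 0.12) from beta cells. Sdhb, a subunit of respiratory complex II, had 31.3 and 36.1 RPKM in transdifferentiated cells, 58.5 and 52.9 RPKM in beta cells and 32.6 and 33.2 RPKM in delta cells, a difference of -0.71 (adjusted p = 0.00324, SE 0.12) from beta cells. Gabpa and Vegfa were higher than in beta cells, at 1.07 (adjusted p = 0.00169, SE 0.15) and 0.90 (adjusted p = 0.00604, SE 0.18).

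Of 10 tested LXR targets, which include Nr1h3 itself, 2 were higher and 2 lower against beta cells, and Nr1h3 alone passed against delta cells. With the replicate block 4 were lower against beta cells, and 6 rather than 3 were higher in beta against delta cells. Apoe, a lipid carrier made by macrophages and other cells, had 1.53 and 3.98 RPKM in transdifferentiated cells, 32.7 and 35.2 RPKM in beta cells and 1.79 and 1.39 RPKM in delta cells. Its log2 fold change against beta cells was -3.30 (adjusted p = 0.000406, SE 0.29), and the macrophage marker sums given above were highest in the same beta libraries. Abca1, the cholesterol exporter, had 29.9 and 26.9 RPKM in the transdifferentiated pools, against 10.05 and 15.8 RPKM in the beta pools and 21.2 and 20.8 RPKM in the delta pools, which is higher than in beta cells, at 1.11 (adjusted p = 0.00419, SE 0.20). Mylip, which degrades the LDL receptor, was also higher, at 0.52 (adjusted p = 0.0138, SE 0.13), but not after scaling, at adjusted p up to 0.179, nor without the female transdifferentiated library. Of 11 tested glucocorticoid receptor targets, 3 were higher and 5 lower against beta cells, and 2 were higher and none lower against delta cells. Those 2 were the metallothioneins Mt1 and Mt2, metal-binding proteins. Mt2 had 830.5 and 751 RPKM in transdifferentiated cells, 2402 and 1755 RPKM in beta cells and 182 and 172 RPKM in delta cells, with a difference of 2.15 (adjusted p = 0.000941, SE 0.17) against delta cells, and Mt1 differed from delta cells by 1.57 (adjusted p = 0.00179, SE 0.15). Cebpd, a transcription factor, was lower than in beta cells, at -1.22 (adjusted p = 0.00390, SE 0.21), and Errfi1, a feedback inhibitor of the EGF receptor, was higher, at 1.03 (adjusted p = 0.0384, SE 0.33). The call of Errfi1 was lost with no filter, after scaling without the replicate block and without the male transdifferentiated library or either beta library, at adjusted p up to 0.209.

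Of 6 tested thyroid hormone receptor targets, 1 was higher and 2 lower against beta cells, and 2 were higher and none lower against delta cells. Mafa, a regulator of mature beta cells that thyroid hormone induces in rodents, had 20.6 and 81.5 RPKM in transdifferentiated cells, 139.6 and 236 RPKM in beta cells and 1.04 and 1.71 RPKM in delta cells. The female transdifferentiated pool held several times the level of the male pool, and the difference from delta cells was 4.17 (adjusted p = 0.00658, SE 0.59). Atp2a2, the calcium pump SERCA2, differed from delta cells by 0.93 (adjusted p = 0.0201, SE 0.18), and Klf9 differed from beta cells by 0.59 (adjusted p = 0.0401, SE 0.19). The call of Atp2a2 was lost with no filter and when any 1 of the transdifferentiated or delta libraries was left out, at adjusted p up to 0.116. That of Klf9 was lost with no filter, after scaling and without any 1 library but the female beta library, at adjusted p up to 0.294. Of 7 tested REV-ERB and ROR targets, 2 were higher against beta cells, Clock at 1.11 (adjusted p = 0.00254, SE 0.17) and Nr1d1 as above, and 1 was lower against delta cells. Of 6 tested HNF4A targets, 1 was higher against beta cells and 1 was lower against delta cells. The target lower against delta cells was Ttr, the thyroxine carrier and an alpha cell gene, with 171 and 217 RPKM in the transdifferentiated pools, against 221 and 214 RPKM in the beta pools and 548 and 644 RPKM in the delta pools and a difference of -1.62 (adjusted p = 0.00167, SE 0.15) from delta cells. Klf9, Nr1d1 and a few others stand in more than 1 list, so the counts are not independent. The target counts against beta cells depended on scaling, which is described under the dependence on processing.

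**Figure D5:**
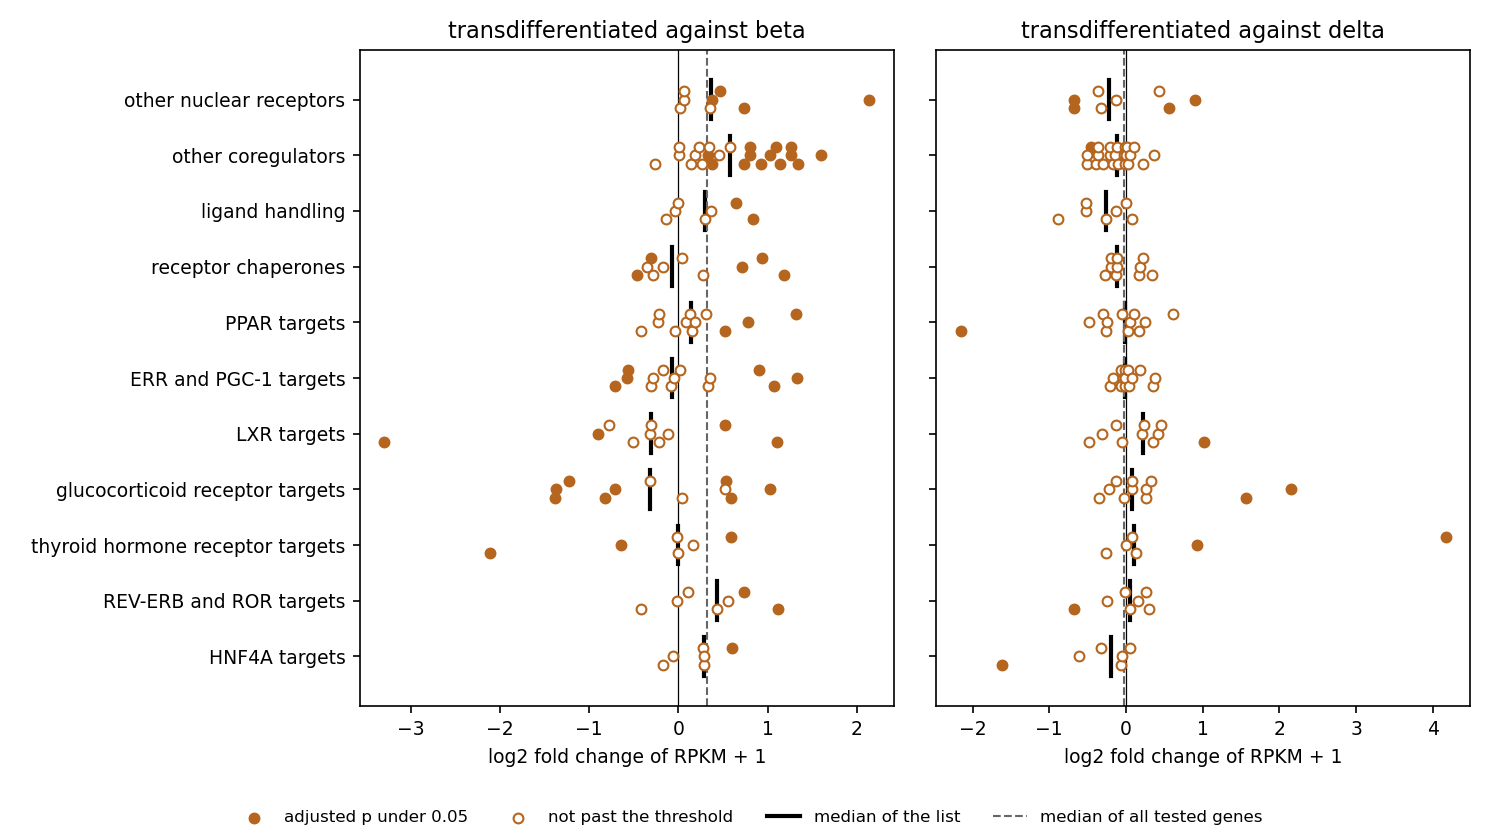
Log2 fold change of RPKM + 1 for the tested genes of 11 textbook lists in transdifferentiated against beta cells (left) and transdifferentiated against delta cells (right). Each point is a gene, filled where its adjusted p was under 0.05. Thick bars are list medians and the dashed line is the median of all tested genes. Of the 23 other coregulators 13 are filled on the left panel, all to the right of 0, and at most 4 points of any list are filled on the right panel.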

How the data were processed

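Cultured islets were dissociated with 0.25% trypsin and sorted, per the labels' protocols, and libraries were made with the TruSeq RNA kit version 2, which keeps no strand. The submitters' processing notes name STAR 2.5, featureCounts, edgeR 3.14.0 and GRCm38.p4. The authors deposited 1 table of RPKM values per gene symbol, and all 6 of its columns were used. The sources used here do not say whether those values carry a correction for composition. Of the rows, 27 with symbols turned into dates were left out.

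The 36 members and the gene lists were chosen with earlier results of these data known. The 13022 genes that reached 1 RPKM in 2 or more of the 6 libraries were tested (R 4.3.3, limma 3.58.1, trended variance, 1 model with 3 group means, log2(RPKM + 1), 2-sided, Benjamini-Hochberg over all tested genes). Fold changes on this scale understate changes of low genes. Every member is named. Of each list, up to 4 genes with the largest changes of those that passed are named. Reads were recovered from the RPKM values, GENCODE M21 exon lengths and each library's step: 83.4% to 86.4% of values under 50 reads were whole within 0.01 read. Coordinates are those of GENCODE M21.

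Same-numbered libraries come from the same islets, per the design text, pooled by sex. Deviations of the pools from their group means correlated at 0.466 (transdifferentiated and beta), 0.361 (transdifferentiated and delta) and 0.244 (beta and delta). Since the number of a library also gives its sex, these correlations cannot tell shared islets from sex. The pairing therefore rests on the design text. The alternatives were this pool block, a pseudocount of 0.1, no filter, median-of-ratios scaling, no trend, each library left out, and scaling with the block, which was added after seeing the data. The procedure was tested on simulated data. Values of some single genes of the lists are not reported here.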

Additional observations from a re-analysis of the deposited data

Results flagged for a closer look

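For 7 values of the members, the male and female pools moved in opposite directions. Each population has 1 library per sex, so sex and pool cannot be told apart, and none of these differences was tested. In transdifferentiated against delta cells, the female pool difference minus the male pool difference, on the log2(RPKM + 1) scale, was -0.12 for Nr3c1, 0.43 for Nr1h2, -0.079 for Nr2c1, -0.17 for Rora and 0.085 for Ncor1. In beta against delta cells it was -0.42 for Nr2f6 and 0.68 for Ncoa1. None of the 7 values belongs to a comparison that passed the test. For Ncoa1 the difference between beta and delta cells was 0.058 in the female pool and -0.63 in the male pool. For Nr1h2 the difference between transdifferentiated and delta cells was 0.35 in the female pool and -0.077 in the male pool.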

How the results depend on the processing

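No called member changed direction under any alternative. Of 19 members called in transdifferentiated against beta cells 11 passed under every alternative, of 8 against delta cells 1 (Pparg), and of 19 in beta against delta cells 15. The matching shares of all called genes are not given here, so these counts do not set the members apart from other genes. Leaving out a transdifferentiated or delta library gave fewer calls in the whole table too, in each comparison. With the pools as a replicate block, all 46 calls held and Vdr joined those lower than in beta cells, giving 5 lower beside 4 without the pairing. Of all tested genes 9.78% were then lower than in beta cells, beside 8.46% without the pairing, so lower calls rose in the whole table too. With a pseudocount of 0.1, and with no filter, 1 member was lower than in delta cells instead of 4, beside 4.95% and 2.47% of all tested genes instead of 7.2%. With 1 library left out, which assumes that a lone library varies like the other groups, the counts ranged from 1 to 5 (lower against beta cells), from 2 to 4 (higher against delta cells), from 0 to 4 (lower against delta cells) and from 3 to 5 (higher in beta against delta cells). Over the same fits the shares of all tested genes ranged from 3.15% to 8.67%, from 2.07% to 6.62%, from 1.94% to 9.16% and from 6.55% to 11.9% for these 4 counts. The lowest counts came without the male transdifferentiated library for the first, without the female transdifferentiated or either delta library for the second, without any transdifferentiated or delta library for the third and without the male delta library for the last.

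Scaling moved the list counts, and it moved the shares of all tested genes too. In transdifferentiated against beta cells these went from 42.5% higher and 8.46% lower to 27.8% and 26.1%. In beta against delta cells they went from 11.7% higher and 46.3% lower to 27.8% and 29.7%. The counts below are to be read beside these shares. In transdifferentiated against beta cells it gave 1 higher and 1 lower for other nuclear receptors, 3 lower for other coregulators, 1 higher and 1 lower for ligand handling, 6 lower for receptor chaperones, 3 lower for PPAR targets, 8 lower for ERR and PGC-1 targets, 1 higher and 5 lower for LXR targets, 0 higher for glucocorticoid receptor targets, 0 higher for thyroid hormone receptor targets, 1 higher and 2 lower for REV-ERB and ROR targets, and 0 higher and 1 lower for HNF4A targets. In beta against delta cells it gave 2 higher and 9 lower for other coregulators, 5 higher and 1 lower for receptor chaperones, 5 higher for PPAR targets, 7 higher and 2 lower for ERR and PGC-1 targets, 5 higher and 0 lower for LXR targets, 2 higher for REV-ERB and ROR targets, and 1 lower for HNF4A targets. Counts against delta cells did not move. With the replicate block the list counts moved by over 1.5 times for LXR targets (4 lower against beta cells instead of 2, and 6 higher in beta against delta cells instead of 3). Of counts of 0 or 1, lower calls against beta cells became 1 for PPAR targets and 1 for REV-ERB and ROR targets, lower calls against delta cells became 2 for PPAR targets, 1 for ligand handling and 0 for other coregulators, and lower calls in beta against delta cells became 1 for thyroid hormone receptor targets. Depth limits the 11 genes below the filter, and 2 libraries a group limit every p-value.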

Other observations

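Genes that make, clear or carry receptor ligands were mostly below the filter in these cells, which 7 of a list of 20 passed. In transdifferentiated cells 2 of the 7 (28.6%) were higher and none lower against beta cells, beside 42.5% and 8.46% of all tested genes. None of the 7 passed against delta cells. The 2 that were higher are sterol hydroxylases. Cyp46a1, which makes 24-hydroxycholesterol, an LXR ligand, had 1.73 and 1.56 RPKM in transdifferentiated cells, 0.613 and 0.369 RPKM in beta cells and 1.97 and 1.35 RPKM in delta cells, with a log2 fold change of 0.83 (adjusted p = 0.00697, SE 0.17) against beta cells. Cyp7b1, which hydroxylates oxysterols, had 6.48 and 5.68 RPKM in the transdifferentiated pools, against 3.87 and 3.16 RPKM in the beta pools and 5.63 and 5.74 RPKM in the delta pools, a difference of 0.65 (adjusted p = 0.00654, SE 0.13) from beta cells. The call of Cyp7b1 was lost after scaling and without the male transdifferentiated library, at adjusted p up to 0.102.

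All 10 listed chaperones of steroid receptors were expressed. Against beta cells 3 (30%) were higher and 2 (20%) lower in transdifferentiated cells, beside 42.5% and 8.46% of all tested genes. None of the 10 passed against delta cells. After scaling 3 were higher and 6 lower against beta cells, beside 27.8% and 26.1% of all tested genes. Hsp90aa1, the inducible HSP90 that holds steroid receptors ready for ligand, had 34.6 and 25.9 RPKM in transdifferentiated cells, 16.9 and 13.7 RPKM in beta cells and 27.6 and 25.1 RPKM in delta cells, a difference of 0.93 (adjusted p = 0.00457, SE 0.17) from beta cells. Ppid, the cyclophilin of the receptor complex, differed by 1.18 (adjusted p = 0.000911, SE 0.14) and Dnaja1, an HSP40 cochaperone, by 0.71 (adjusted p = 0.00385, SE 0.12). Cdc37, a kinase-directed HSP90 partner, had 41.5 and 46.4 RPKM in the transdifferentiated pools, against 60.9 and 61.2 RPKM in the beta pools and 48.3 and 52.4 RPKM in the delta pools, which was lower than in beta cells, at -0.47 (adjusted p = 0.0125, SE 0.11), a call lost without the male transdifferentiated library, at adjusted p = 0.0823.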
